A study of Rattus norvegicus with 24 samples.

Results

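Bdnf, which encodes brain-derived neurotrophic factor, was followed together with 4 other genes of the neurotrophin system in cultured rat striatal neurons. The other 4 are Ntf3, the gene of the ligand neurotrophin-3, and the receptor genes Ntrk2 (TrkB), Ntrk3 (TrkC) and Ngfr (p75). The genes were taken by symbol from the deposited tables, and each gene's level was summed over its annotated transcripts. They are 5 of the 32883 genes in the tables, with 19 of the 41078 transcripts. All 5 genes and 12 of the 19 transcripts passed the filter on low values.

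The neurons came from the striatum of neonatal rats and were at day 7 in vitro (DIV 7), which the labels give for every sample, with no strain or transgene. SKF, an agonist of the D1 dopamine receptor, was crossed with a bromodomain inhibitor in 3 experiments. Experiment 1 held DMSO, JQ1, SKF and SKF plus JQ1 for 60 min. Experiment 2 held DMSO, iBD2, SKF and SKF plus iBD2 for 60 min, and experiment 3 held DMSO, JQ1, SKF and SKF plus JQ1 for 24 h. The controls carried DMSO in place of both agents. Doses are not in the labels. Each group had 2 libraries, numbered 5 and 6 in experiments 1 and 3 and 1 and 2 in experiment 2. SKF plus iBD2 has 1 library, since its replicate 2 was not analysed here. Whether replicates were grown as separate cultures is not in the labels, so each p-value reflects library-to-library spread alone, and this may be technical.

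Neurotrophins are secreted proteins that are made as larger precursors and cut to a mature form. Mature BDNF activates the receptor tyrosine kinase TrkB, neurotrophin-3 activates mainly TrkC, and the precursors bind p75 together with sortilin. In the adult brain much of the BDNF protein of the striatum is made by cortical and midbrain neurons that project there, and striatal neurons carry TrkB. Bdnf is also a gene that responds to neuronal activity and to cyclic AMP, through several promoters that each splice their own first exon to a shared coding exon. JQ1 blocks the bromodomains by which BET proteins bind acetylated histones.

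Aligned bases, computed from the deposited coverage and FPKM, ranged from 4.36 to 14.9 gigabases per library, and experiment 2 was the shallowest, with 4.36 to 7.20. FPKM counts fragments scaled by transcript length and by library size. The summed FPKM of 7 neuron markers was 1683 to 2218 over the 23 libraries, and all 10 striatal projection neuron markers, Drd1 and Ppp1r1b among them, were above 0 in each library. Astrocyte markers were present too, with a sum over 9 genes of 145 to 154 in experiment 2, against 344 to 478 and 333 to 515 in experiments 1 and 3. The sum over 8 microglia markers was 40.3 to 59.0 in experiment 1 and 26.5 to 33.2 in experiment 2. The 4 endothelial markers in the tables summed to at most 0.224. Mitochondrially encoded genes took 8.05 to 9.79%, 5.31 to 5.87% and 8.58 to 10.7% of aligned bases in experiments 1, 2 and 3. In RNA from a mixed culture, fewer cells of a type and less RNA per cell cannot be told apart.

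The receptor genes for the mature ligands were far more abundant than the ligand genes. Ntrk2 had 90.9 to 109 FPKM over all libraries, with a median of 103, and only 3.59% of the 13999 genes tested had a higher mean. Ntrk3 had 8.83 to 14.6 FPKM, with a median of 12.2, and 37.7% of tested genes were higher. Bdnf ranged most widely, from 0.225 FPKM in a 24 h DMSO library to 5.71 FPKM in the SKF plus iBD2 library, a ratio of 25.4. Its median was 0.738 FPKM, and 80.6% of tested genes had a higher mean. Ngfr had 0.317 to 0.628 FPKM and Ntf3 had 0.0508 to 0.812 FPKM, with 95.1% and 97.9% of tested genes above them. The ranges of Ntrk2 and Ntrk3 met neither each other nor those of the other 3 genes. Those of Bdnf, Ntf3 and Ngfr overlapped in experiments 1 and 3, while in experiment 2 every Bdnf value, 2.70 to 5.71 FPKM, lay above every value of Ntf3 and Ngfr. The reads estimated from coverage were 74.0 to 1477 per library for Bdnf, 49.9 to 223 for Ngfr and 5.31 to 85.3 for Ntf3, against at least 23896 for Ntrk2 and at least 1265 for Ntrk3.

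Bdnf (ENSRNOG00000047466) lies on the plus strand of chromosome 3 at 100768637 to 100819210 in the build Rnor_6.0. Its 8 annotated transcripts begin at 8 different starts and share the last base. The transcript with the highest median FPKM over the libraries, ENSRNOT00000080190, begins at the fourth start in order along the gene, 100786862, which is 18225 bases after the first. It was above 0 in all 23 libraries. The transcript that begins at the first start, ENSRNOT00000083542, was above 0 in 19. The 250 bases before both starts are shown because these transcripts had the highest median FPKM of the 8. They are from the plus strand of chromosome 3 in RefSeq's GRCr8, chr3:116637608-116637857 for the fourth start and chr3:116619383-116619632 for the first. These windows were matched to the transcripts by the equal spacing of their starts, which paired 6 of the 8 starts. Capitals mark CGTCA, the reverse complement of TGACG, which is the core of the element bound by CREB.
ENSRNOT00000080190: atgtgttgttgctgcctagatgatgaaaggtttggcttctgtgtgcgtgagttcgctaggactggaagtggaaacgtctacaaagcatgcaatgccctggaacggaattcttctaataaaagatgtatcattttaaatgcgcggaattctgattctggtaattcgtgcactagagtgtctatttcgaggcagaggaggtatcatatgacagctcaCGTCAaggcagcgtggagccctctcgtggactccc
ENSRNOT00000083542: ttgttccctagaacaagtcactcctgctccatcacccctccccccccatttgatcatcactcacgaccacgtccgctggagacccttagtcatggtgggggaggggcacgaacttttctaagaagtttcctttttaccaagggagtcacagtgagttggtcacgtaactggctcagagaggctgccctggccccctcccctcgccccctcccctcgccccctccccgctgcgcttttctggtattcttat

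Searched on both strands over the 250 bases before and 50 after each start, TGACG occurred in 1 of the 6 Bdnf windows, that of the fourth start, where it begins 35 bases before the start. Of all 33469 such windows in RefSeq, 21.2% held it. The full palindrome TGACGTCA was in 0 of the 6 windows and in 1.83% of all. The E-box CACGTG was in 1 window, that of ENSRNOT00000077703, where it lay 19 bases after the start, and in 6.42% of all. The AP-1 sequence TGANTCA was in 1 window, that of ENSRNOT00000089233, 152 bases before the start, and in 7.33% of all. TGACG lies within TGACGTCA, so the counts of these motifs overlap.

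SKF raised Bdnf at 60 min. In experiment 1 Bdnf was 0.680 and 0.634 FPKM in the DMSO libraries and 0.910 and 1.41 FPKM in the SKF libraries. In experiment 2 it was 3.28 and 2.70 FPKM with DMSO and 5.06 and 4.77 FPKM with SKF. Both SKF libraries were above both DMSO libraries in each experiment, and the SKF libraries of experiment 1 lay further apart than those of experiment 2. The means rose 1.77-fold in experiment 1, from 0.657 ± 0.0323 to 1.16 ± 0.355 FPKM (SD, n = 2), and 1.64-fold in experiment 2, from 2.99 ± 0.404 to 4.91 ± 0.203 FPKM (SD, n = 2). Folds and percentages of means are of FPKM as deposited, while the log2 changes and their tests are of FPKM divided by the library's size factor, so the measures can differ in size. On the scale of log2(scaled FPKM + 0.5), which understates the change of low genes, the rise over both experiments was 0.60 ± 0.12 (SE) with an adjusted p of 0.0067. Bdnf was the only 1 of the 5 genes to pass in this comparison, in which 3.93% of the 13999 tested genes passed. Experiment by experiment Bdnf did not pass. The difference was 0.53 ± 0.17 with an adjusted p of 0.26 in experiment 1, where 0 of the 5 genes and 1.68% of tested genes passed. It was 0.67 ± 0.17 with an adjusted p of 0.053 in experiment 2, where 0 of the 5 and 2.37% of tested genes passed. Of the 5 genes, 2 had an unadjusted p under 0.05 in experiment 1, Bdnf and Ntrk3, and 1 in experiment 2, Bdnf. In experiment 2 Bdnf passed with a pseudocount of 1 (adjusted p = 0.013), on voom-transformed reads (adjusted p = 0.040) and when that experiment was fitted alone (adjusted p = 0.0052).

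**Figure D1:**
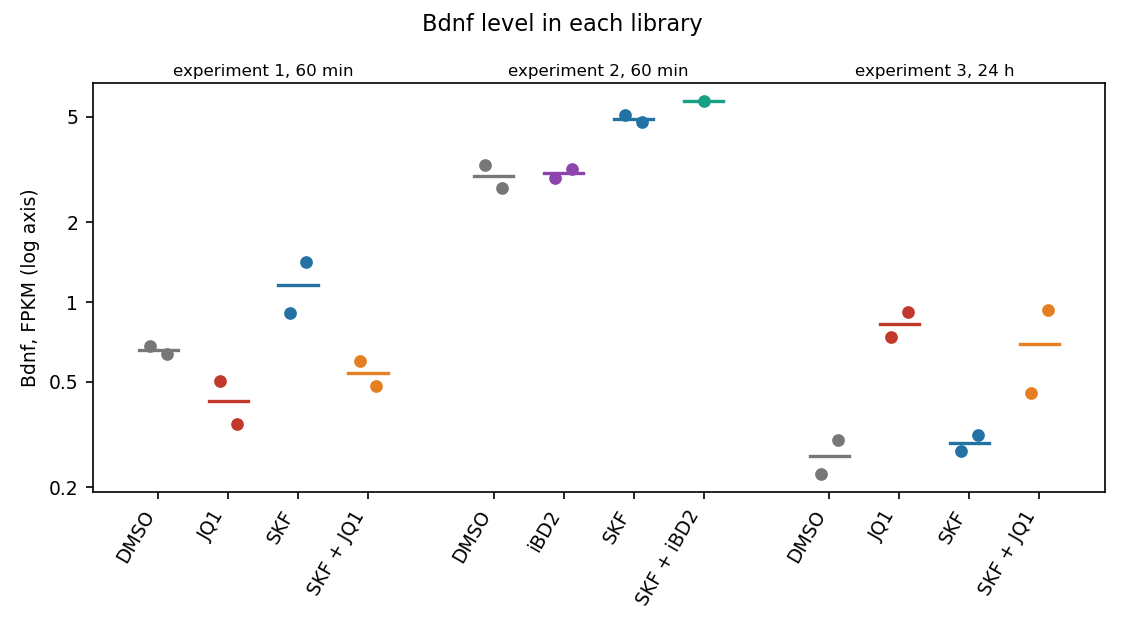
Bdnf level in FPKM (log axis) in each of the 23 libraries, by group and experiment. Points are libraries and lines are group means. SKF libraries lie above the DMSO libraries of their own experiment at 60 min, all 7 libraries of experiment 2 lie at or above 2.70, and at 24 h the JQ1 libraries, 0.737 and 0.917, lie above the DMSO libraries, 0.225 and 0.301.

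JQ1 given with SKF for 60 min left Bdnf lower than SKF alone. The SKF plus JQ1 libraries had 0.601 and 0.481 FPKM, against 0.910 and 1.41 FPKM with SKF. Neither SKF plus JQ1 library reached a level seen with SKF alone, and the mean fell by 53.4%. The difference was -0.67 ± 0.17 on the log2 scale (SE, adjusted p = 0.027). Bdnf was 1 of the 5 genes to pass here, where 6.49% of tested genes passed. The call rested on single libraries. Leaving out SKF replicate 6, the higher of its group, gave -0.42 with an adjusted p of 0.31. Leaving out replicate 5 of SKF plus JQ1 gave -0.74 with an adjusted p of 0.087, and leaving out its replicate 6 gave -0.59 with an adjusted p of 0.18. With no filter on low values the adjusted p was 0.070. JQ1 alone for 60 min gave 0.503 and 0.345 FPKM, both below the DMSO libraries, and a change in the mean of -35.4%. That difference did not pass, at -0.32 ± 0.17 (SE) with an adjusted p of 0.47, and 0 of the 5 genes passed where 4.36% of tested genes did. None of the 5 had an unadjusted p under 0.05 there or an adjusted one on voom-transformed reads.

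The interaction term asks whether SKF changed Bdnf by a different amount under JQ1 than without it. For Bdnf at 60 min it was -0.35 ± 0.25 (SE), with a 95% interval of -0.87 to 0.17 and an adjusted p of 1, and it lay between -0.59 and -0.11 with each library left out in turn. By limma 0 of 13999 genes passed, or 0%, while 453 had an unadjusted p under 0.05 and 1 gene passed on voom-transformed reads. So SKF plus JQ1 lay below SKF, but a change in the size of the SKF response itself was not detectable at this depth and number of libraries.

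iBD2 left the Bdnf values where those of its controls lay. The iBD2 libraries had 2.94 and 3.19 FPKM, between the DMSO values of 3.28 and 2.70. The difference was 0.07 ± 0.17 on the log2 scale (SE), with a 95% interval of -0.30 to 0.44 and an adjusted p of 0.99. The SKF plus iBD2 library had 5.71 FPKM, above both SKF libraries of that experiment. Its difference from SKF was 0.19 ± 0.21 (SE), with a 95% interval of -0.26 to 0.65 and an adjusted p of 1, under the assumption that this lone library varies like the other groups. Of the 5 genes, 0 passed with iBD2 alone and 0 with iBD2 added to SKF, where 0.186% and 0.0214% of tested genes passed, and none had an unadjusted p under 0.05 or passed on voom-transformed reads. The interaction of SKF with iBD2 for Bdnf was 0.12 ± 0.28 (SE, adjusted p = 1), in a comparison where 0 of the 5 genes and 0.0143% of tested genes passed. The JQ1 effect minus the iBD2 effect, each against the DMSO group of its own experiment, was -0.39 ± 0.25 (SE), with a 95% interval of -0.91 to 0.13 and an adjusted p of 0.74. Here too 0 of the 5 genes passed, and 0.929% of tested genes did. None of the 5 had an unadjusted p under 0.05 in these differences of effects. The labels give no doses for JQ1 and iBD2, so it is not known whether these were matched.

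At 24 h Bdnf was higher with JQ1. The DMSO libraries had 0.225 and 0.301 FPKM and the JQ1 libraries 0.737 and 0.917 FPKM. Both JQ1 values exceeded both DMSO values by more than the spread within either group, and the means differed 3.15-fold, 0.263 ± 0.0533 against 0.827 ± 0.127 FPKM (SD, n = 2). The rise was 0.85 ± 0.17 on the log2 scale (SE, adjusted p = 0.00058). JQ1 raised 1 of the 5 genes, Bdnf, and lowered 1, Ntrk2, where 56.1% of tested genes passed in either direction, so at 24 h most genes tested were called. The estimated reads taken through voom gave a rise of 1.74 (adjusted p = 0.00057).

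With SKF present at 24 h the Bdnf rise with JQ1 rested more on 1 library. SKF libraries had 0.274 and 0.315 FPKM, and SKF plus JQ1 libraries had 0.455 and 0.934 FPKM. The groups did not overlap, and replicate 6 of SKF plus JQ1 was well above replicate 5. The means differed 2.35-fold and the change was 0.59 ± 0.17 (SE, adjusted p = 0.0081). Without SKF plus JQ1 replicate 6 it was 0.29 with an adjusted p of 0.19. Of the 5 genes 1 rose, Bdnf, and 2 fell, Ntrk2 and Ntrk3, where 56.2% of tested genes passed. SKF alone for 24 h did not separate Bdnf from DMSO, at 0.06 ± 0.17 (SE, adjusted p = 0.97) and overlapping values. In that comparison 0 of the 5 genes passed, none had an unadjusted p under 0.05 or passed on voom-transformed reads, and 1.5% of tested genes passed. The interaction at 24 h was -0.25 ± 0.25 (SE, adjusted p = 0.97), with 0 of the 5 genes and 0.0429% of tested genes passing and none of the 5 at an unadjusted p under 0.05.

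The JQ1 effect on Bdnf differed between the times. At 24 h it was higher than at 60 min by 1.16 ± 0.25 on the log2 scale (SE, adjusted p = 0.0016), each effect being taken against the DMSO group of its own experiment. Bdnf was 1 of the 5 genes to pass, where 36.2% of tested genes passed. The SKF effect at 24 h minus that at 60 min in experiment 1 was -0.47 ± 0.25 (SE, adjusted p = 0.67), and 0 of the 5 genes passed where 1.28% of tested genes did. Ntrk3 was the 1 gene with an unadjusted p under 0.05 there, at 0.31 ± 0.14 (SE, adjusted p = 0.54). Time and experiment are the same split of the libraries, so they cannot be told apart.

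Cell type marker sums differed between the groups of experiment 3. Over all genes tested 56.1% passed with JQ1 alone at 24 h and 56.2% with JQ1 added to SKF. These shares are the background for the marker counts below. The microglia sum was 44.4 to 57.7 FPKM with DMSO, 6.50 to 9.59 with JQ1, 20.1 to 27.5 with SKF and 0.815 to 1.64 with SKF plus JQ1. All 8 microglia markers fell in both comparisons of JQ1 at 24 h. With SKF alone for 24 h 6 of the 8 fell and 0 rose, where 1.5% of tested genes passed. Over all libraries Aif1 was at 0 in 3, Itgam in 2, and Cx3cr1 and P2ry12 in 1 each. The neuron sum was 2073 to 2218 with DMSO, 1826 to 1909 with JQ1, 2060 to 2083 with SKF and 1683 to 1856 with SKF plus JQ1. Of its 7 markers 1 rose and 2 fell with JQ1 alone, and 1 rose and 3 fell with JQ1 added to SKF. The striatal projection neuron sum was 473 to 528 with DMSO, 420 to 480 with JQ1, 507 to 530 with SKF and 359 to 448 with SKF plus JQ1. Of those 10 markers 1 rose and 3 fell with JQ1 alone, and 1 rose and 5 fell with JQ1 added to SKF. Of the 7 oligodendrocyte lineage markers tested 3 rose and 3 fell with JQ1 alone, and 3 rose and 1 fell with JQ1 added to SKF. The part of these markers in the Bdnf result was not tested. None of the 7 neuron markers was at 0 in any library.

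**Figure D2:**
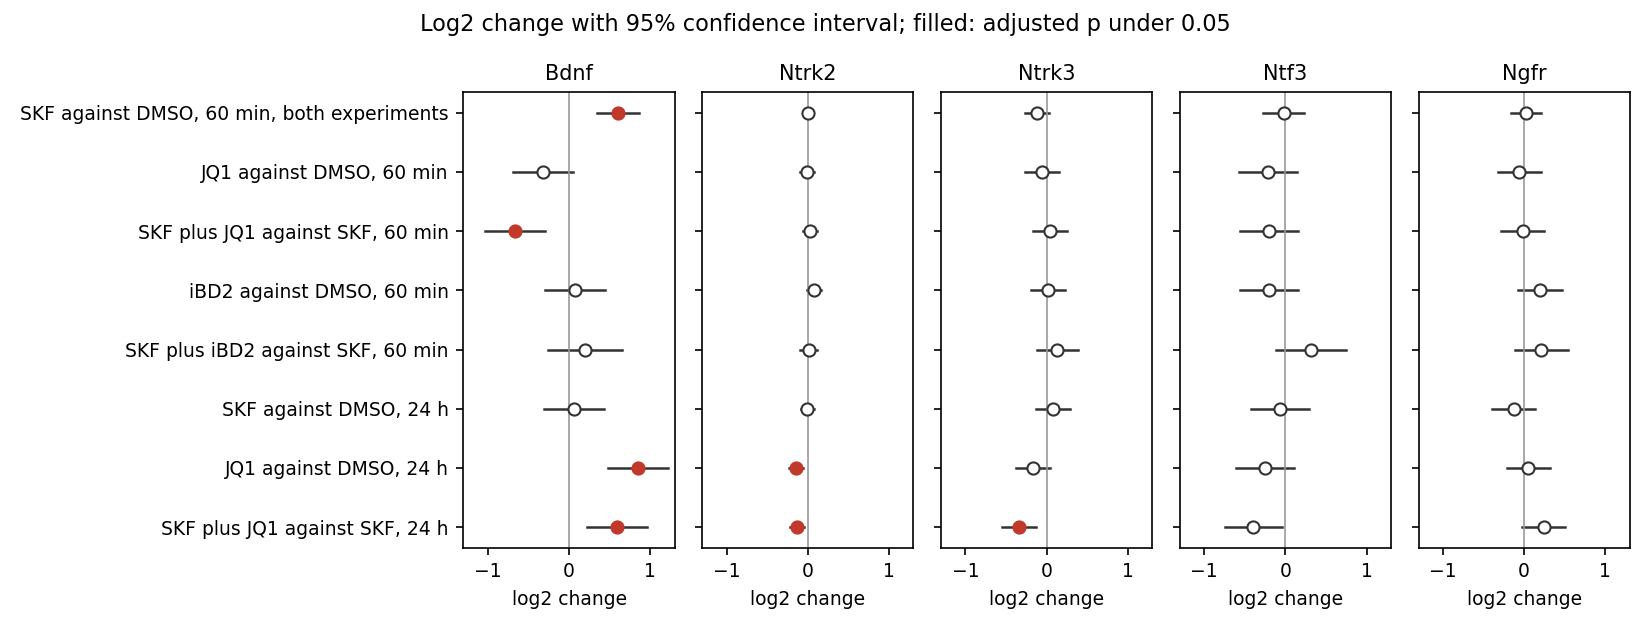
Log2 change of each gene in 8 comparisons, on the scale of log2(scaled FPKM + 0.5), with 95% confidence intervals as bars. Filled points have an adjusted p under 0.05. The Bdnf point lies right of 0 for SKF at 60 min (0.60) and for JQ1 at 24 h (0.85) and left of 0 for SKF plus JQ1 against SKF at 60 min (-0.67), while the filled Ntrk2 points lie at -0.14 and -0.13.

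The level of Bdnf also differed between the experiments before any treatment. The DMSO means were 0.657 ± 0.0323 FPKM in experiment 1, 2.99 ± 0.404 in experiment 2 and 0.263 ± 0.0533 in experiment 3 (SD, n = 2 each), and their values did not overlap. These groups differ in experiment and, for experiment 3, in time, and the difference was not tested. Experiment 2 had the lowest astrocyte marker sums, the lowest mitochondrial share and the highest sums of the 10 striatal projection neuron markers, 645 to 701 FPKM against 481 to 574 and 359 to 530 in experiments 1 and 3. The part of these differences in the Bdnf level was not tested.

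ENSRNOT00000080190 took a median of 66.6%, 53.5% and 60.5% of the gene's FPKM in experiments 1, 2 and 3. In experiment 2 its mean share was 39.1% with DMSO, 44.5% with iBD2 and 55.9% with SKF, and ENSRNOT00000083542 took 50.1% with DMSO. In experiment 1 ENSRNOT00000080190 had 0.318 and 0.613 FPKM with DMSO, and 0.438 and 1.22 FPKM with SKF. In experiment 2 it had 1.75 and 0.667 FPKM with DMSO and 2.93 and 2.58 FPKM with SKF. Thus the groups overlapped in experiment 1 and not in experiment 2. Over both experiments the SKF difference for this transcript was 0.73 ± 0.24 on the log2 scale (SE, unadjusted p = 0.0088, adjusted p = 0.17), in a fit over 17733 transcripts of which 2.55% passed. ENSRNOT00000083542 took a median of 12.3%, 31.5% and 18.9% of the gene's FPKM in the same order. It had 0.727 to 1.78 FPKM in experiment 2, against at most 0.248 and 0.228 FPKM in experiments 1 and 3, with no overlap between experiment 2 and the others. Its SKF difference at 60 min was 0.11 (adjusted p = 0.87), and in experiment 2 the DMSO values, 1.13 and 1.78 FPKM, spanned the SKF values, 1.67 and 1.06. Whether these transcripts responded differently to SKF was not tested.

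None of the 3 Bdnf transcripts that passed the filter, those named above and ENSRNOT00000073636, passed the test in any comparison. For SKF plus JQ1 against SKF at 60 min the difference of ENSRNOT00000080190 was -0.64 (adjusted p = 0.43), where 4.08% of transcripts passed, and -1.10 to -0.18 with each library left out in turn. Its values there were 0.497 and 0.172 FPKM with SKF plus JQ1, and the higher of these exceeded the lower SKF value of 0.438. For JQ1 at 24 h its difference was 0.33 (adjusted p = 0.48), or 0.11 to 0.54 with each library left out, and that of ENSRNOT00000083542 was 0.36 (adjusted p = 0.24). At 24 h ENSRNOT00000080190 had 0.225 and 0.226 FPKM with DMSO and 0.268 and 0.524 FPKM with JQ1. ENSRNOT00000083542 had 0 and 0.041 FPKM with DMSO and 0.116 and 0.204 with JQ1. For each of these transcripts both JQ1 values were above both DMSO values. The libraries are the same for both transcripts, so these are not separate observations. The mean share of ENSRNOT00000080190 was 87.5% with DMSO, 46.7% with JQ1, 56.5% with SKF and 55.1% with SKF plus JQ1, and the DMSO value includes a library with 74.0 estimated reads for the gene, all put on this transcript. The 5 transcripts that failed the filter reached at most 0.280 FPKM. All 8 end at the same base, so the split between them can rest only on the stretches in which they differ.

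**Figure D3:**
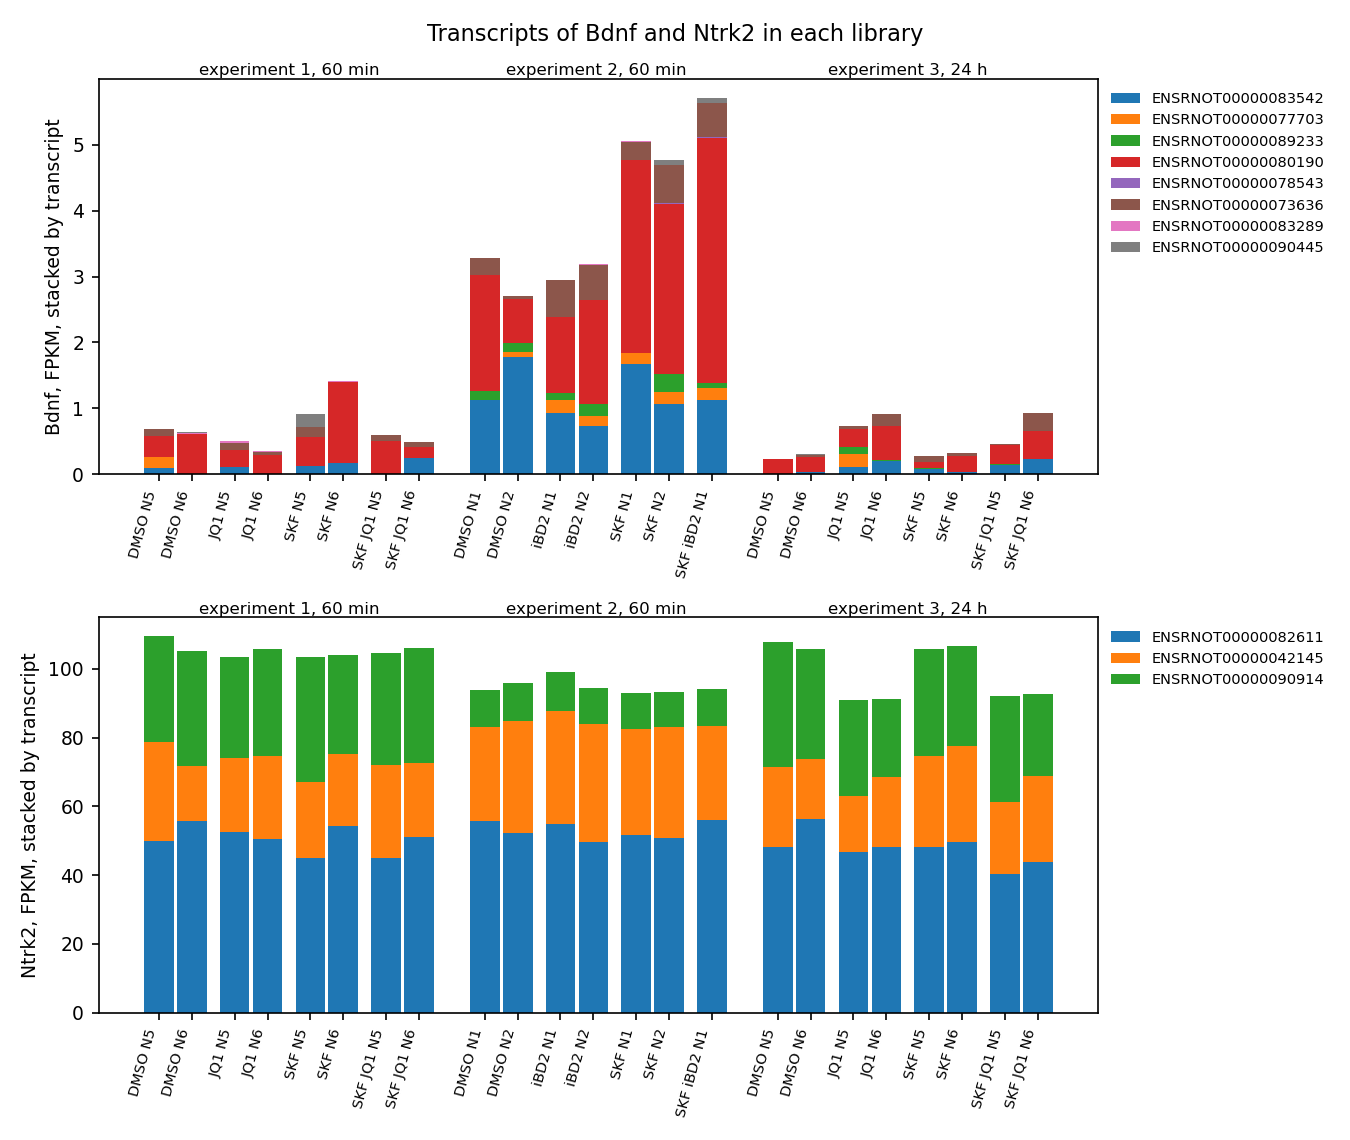
FPKM of each annotated transcript of Bdnf (top) and Ntrk2 (bottom), stacked in each of the 23 libraries, by group and experiment. ENSRNOT00000080190 is the tallest part of most Bdnf bars, ENSRNOT00000083542 is seen mainly in experiment 2, and ENSRNOT00000090914 of Ntrk2 is 10.3 to 11.3 FPKM in experiment 2 and 22.6 to 36.4 in the others.

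Ntrk2 (ENSRNOG00000018839, minus strand of chromosome 17, 5933729 to 6244676 in Rnor_6.0) fell with JQ1 at 24 h by a small and even amount. It had 108 and 106 FPKM with DMSO, 90.9 and 91.1 with JQ1, 106 and 107 with SKF, and 92.1 and 92.5 with SKF plus JQ1. The 4 libraries with JQ1 were the lowest 4 of the 8, and the SD within a group was 0.167 to 1.41 FPKM (n = 2). With JQ1 alone the mean of the deposited FPKM fell by 14.8%, which is -0.23 on the log2 scale (adjusted p = 5.1e-05). After scaling by size factors the change was smaller, at -0.14 ± 0.04 (SE, adjusted p = 0.0063). With JQ1 added to SKF the deposited mean fell by 13.0%, or -0.20 (adjusted p = 0.0002), and the scaled change was -0.13 ± 0.04 (SE, adjusted p = 0.0093). This last scaled call was lost on leaving out SKF replicate 6 (-0.13, adjusted p = 0.051) or replicate 5 of SKF plus JQ1 (-0.11, adjusted p = 0.065). At 60 min the 15 libraries ran from 92.9 to 109 FPKM, and the changes were 0.00 ± 0.03 with SKF, -0.01 ± 0.04 with JQ1, 0.02 ± 0.04 with JQ1 added to SKF and 0.07 ± 0.04 with iBD2 (SE). None of these passed, and the 95% interval for iBD2 was -0.01 to 0.16. The JQ1 effect at 24 h minus that at 60 min was -0.13 ± 0.06 (SE) with an adjusted p of 0.082. On FPKM as deposited it was -0.19 and passed (adjusted p = 0.0086), so a difference between the times for Ntrk2 depends on the scaling.

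Ntrk2 has 3 annotated transcripts. ENSRNOT00000082611 has 19 exons and ENSRNOT00000042145 has 18, while ENSRNOT00000090914 has 13 exons and ends 181 kb short of the longest reach of the gene. As a transcript ENSRNOT00000090914 is still the longest of the 3, with 6931 bases against 5823 and 4750. Ntrk2 is known to yield a full receptor with a kinase domain and truncated receptors without one, and astrocytes make mainly a truncated form. Whether ENSRNOT00000090914 codes for a truncated form was not examined here. It had 10.3 to 11.3 FPKM in experiment 2, against 28.7 to 36.4 and 22.6 to 36.4 in experiments 1 and 3. Its median share of Ntrk2 was 11.4% in experiment 2, against 30.3% and 29.9%, and no library of experiment 2 overlapped with the others. The astrocyte marker sums, given above, were likewise lowest in experiment 2, and no astrocyte marker was at 0 in any library. Their part in the transcript's level was not tested.

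With JQ1 for 24 h ENSRNOT00000090914 went from 36.4 and 32.0 FPKM to 27.9 and 22.6 FPKM. Both JQ1 values were below both DMSO values, and the change was -0.35 ± 0.12 on the log2 scale (SE, adjusted p = 0.034), where 40.9% of transcripts passed. Leaving out a DMSO library ended the call, at -0.29 (adjusted p = 0.16) for replicate 5 and -0.41 (adjusted p = 0.058) for replicate 6. So did leaving out JQ1 replicate 6, at -0.21 (adjusted p = 0.28). Added to SKF, JQ1 left the values overlapping, with 31.1 and 28.9 FPKM against 30.8 and 23.6, and a difference of -0.09 (adjusted p = 0.62), where 40.6% of transcripts passed. The transcripts with more exons did not pass, and whether the transcripts differed in their response to JQ1 was not tested. For ENSRNOT00000082611 the differences with JQ1 were -0.04 (adjusted p = 0.81) and -0.15 (adjusted p = 0.35) without and with SKF, and for ENSRNOT00000042145 they were -0.07 (adjusted p = 0.83) and -0.18 (adjusted p = 0.54). In the same libraries the astrocyte marker sum was 411 to 515 FPKM with DMSO, 333 to 394 with JQ1, 401 to 422 with SKF and 373 to 502 with SKF plus JQ1. Over all genes tested 56.1% passed with JQ1 alone and 56.2% with JQ1 added to SKF. Of the 9 astrocyte markers 4 fell and 0 rose with JQ1 alone, while 2 fell and 3 rose with JQ1 added to SKF. Their part in the fall of Ntrk2 was not tested.

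**Figure D4:**
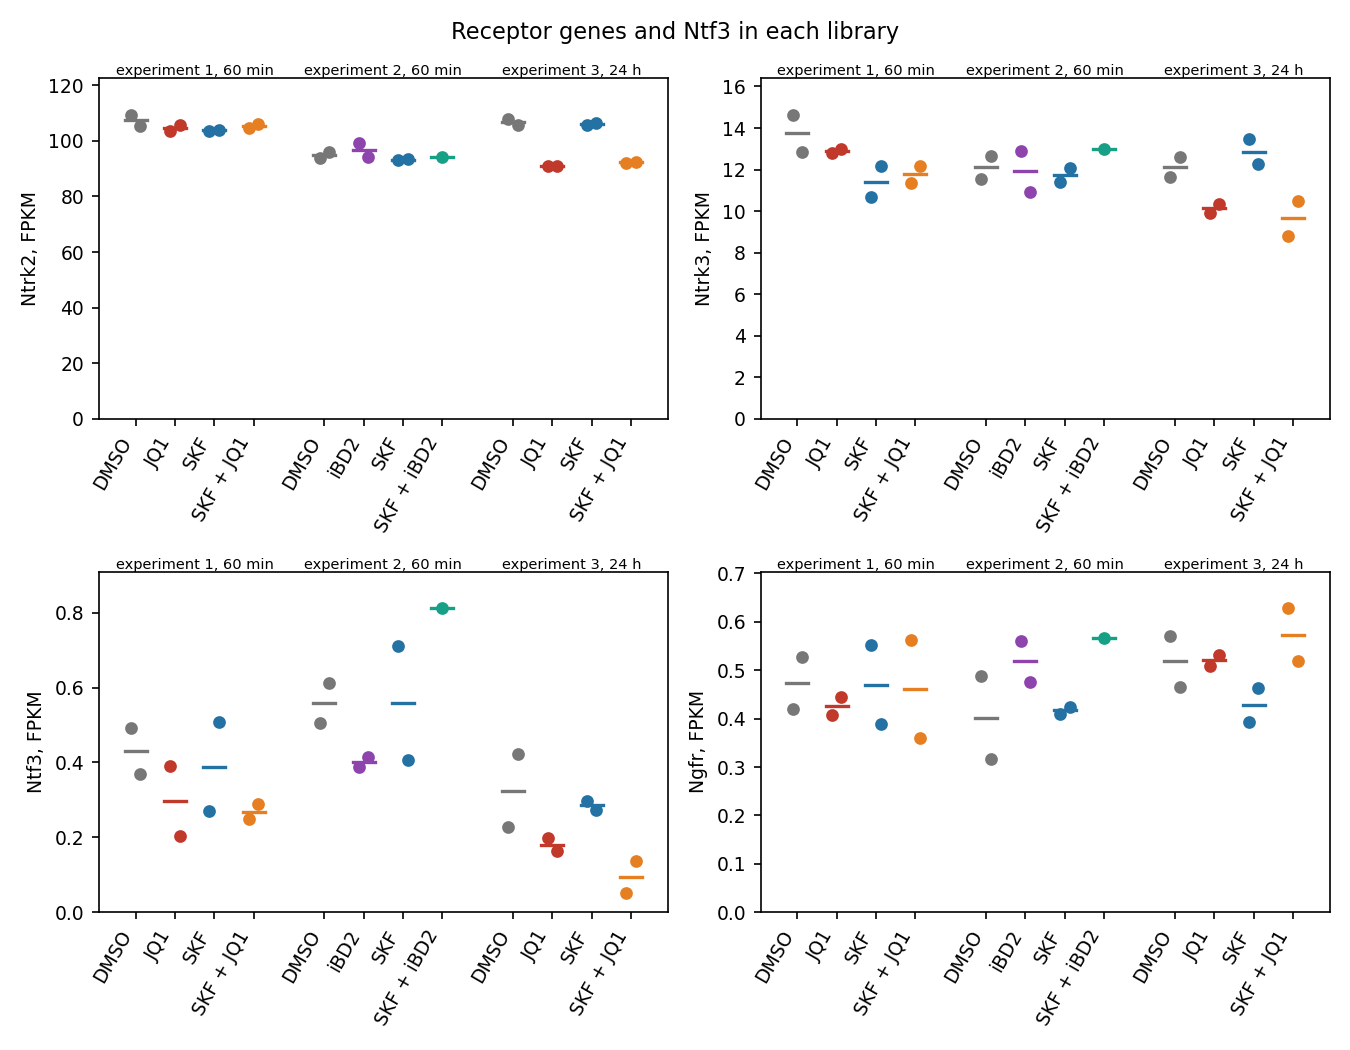
FPKM of Ntrk2, Ntrk3, Ntf3 and Ngfr in each of the 23 libraries, by group and experiment, on linear axes from 0. Points are libraries and lines are group means. Ntrk2 lies at 90.9 to 92.5 in the 4 libraries with JQ1 at 24 h and at 106 to 108 in the other 4 libraries of that experiment, while Ngfr stays between 0.317 and 0.628 throughout.

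Ntrk3 (ENSRNOG00000018674, minus strand of chromosome 1, 139890560 to 140262503 in Rnor_6.0) was lower at 24 h when JQ1 was added to SKF. SKF libraries had 13.5 and 12.2 FPKM and SKF plus JQ1 libraries 8.83 and 10.5 FPKM. The groups did not overlap, the mean fell by 24.8% and the change was -0.33 ± 0.10 on the log2 scale (SE, adjusted p = 0.0086). Leaving out SKF replicate 5 gave -0.27 (adjusted p = 0.083), and leaving out replicate 5 of SKF plus JQ1 gave -0.20 (adjusted p = 0.15). JQ1 alone gave 9.91 and 10.4 FPKM against 11.7 and 12.6 FPKM with DMSO. This difference did not pass, at -0.16 ± 0.10 (SE, adjusted p = 0.17), and passed on FPKM as deposited (-0.25, adjusted p = 0.035). The interaction was -0.17 ± 0.14 (SE, adjusted p = 0.96), so the JQ1 difference was not shown to depend on SKF. At 60 min the changes of Ntrk3 lay between -0.11 and 0.13 over the comparisons of SKF in both experiments, JQ1, JQ1 added to SKF, iBD2 and iBD2 added to SKF, and none passed. In experiment 1 alone the SKF libraries, 10.7 and 12.2 FPKM, lay below the DMSO libraries, 14.6 and 12.8, a difference of -0.23 ± 0.10 (SE, unadjusted p = 0.034, adjusted p = 0.55) that was not seen in experiment 2, at 0.00 ± 0.10 (SE). With each library left out in turn the first of these lay between -0.35 and -0.10. Whether the experiments differed was not tested.

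TrkC too has forms that lack the kinase. Of the 4 Ntrk3 transcripts ENSRNOT00000041839 (17 exons) took a median of 64.0% to 69.5% of the gene's FPKM by experiment. ENSRNOT00000025536 (14 exons), which ends 102 kb short of the longest reach, took 26.1% to 30.4%. Unlike ENSRNOT00000090914 of Ntrk2, ENSRNOT00000025536 overlapped between experiments. It had 2.38 to 5.41, 2.20 to 4.99 and 2.04 to 4.27 FPKM in experiments 1, 2 and 3. With JQ1 added to SKF for 24 h ENSRNOT00000041839 had 6.46 and 5.85 FPKM against 8.79 and 8.92 with SKF, a change of -0.43 ± 0.15 (SE, adjusted p = 0.032). That call was lost on leaving out any 1 of these 4 libraries, with an adjusted p of 0.066 to 0.14 and a change of -0.48 to -0.38. ENSRNOT00000025536 had a difference of -0.44 ± 0.27 (SE, adjusted p = 0.22).

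Ntf3 (ENSRNOG00000019716, minus strand of chromosome 4, 158636884 to 158705886 in Rnor_6.0) was near the lower limit of these libraries. At 24 h it had 0.227 and 0.424 FPKM with DMSO, 0.197 and 0.163 with JQ1, 0.298 and 0.273 with SKF, and 0.0508 and 0.137 with SKF plus JQ1. The SKF plus JQ1 values were the lowest of the experiment, and the lower of them stood on 5.31 estimated reads. Against SKF the mean differed by -67.1%, a difference of -0.39 ± 0.17 on the log2 scale (SE) that did not pass (adjusted p = 0.057). It passed on FPKM as deposited (-0.41, adjusted p = 0.048), with a pseudocount of 0.1 (-0.99, adjusted p = 0.017) and on voom-transformed reads (-1.66, adjusted p = 0.012). JQ1 alone gave -0.25 ± 0.17 (SE, adjusted p = 0.23). At 60 min Ntf3 had 0.205 to 0.508 FPKM in experiment 1 and 0.388 to 0.812 in experiment 2, where the SKF plus iBD2 library was highest, and none of its changes passed. In most libraries the whole signal was put on 1 of the 3 transcripts, most often ENSRNOT00000087115, which was above 0 in 15 libraries, or ENSRNOT00000082009, above 0 in 8, so the split between them is not described further.

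Ngfr (ENSRNOG00000005392, minus strand of chromosome 10, 83389847 to 83408061 in Rnor_6.0, 1 transcript of 6 exons) did not pass in any comparison. Its FPKM ran from 0.360 to 0.562, from 0.317 to 0.566 and from 0.393 to 0.628 in experiments 1, 2 and 3, so the experiments overlapped. Its largest difference at 24 h was with JQ1 added to SKF, 0.24 ± 0.13 on the log2 scale (SE), from 0.393 and 0.464 FPKM with SKF to 0.628 and 0.519 with SKF plus JQ1, with a 95% interval of -0.02 to 0.51 and an adjusted p of 0.11. p75 is known from developing neurons.

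Other genes of the pathway were taken from 4 lists. These hold other ligands and receptors (11 of 15 tested), processing and sorting (15 of 19), Trk and p75 signalling (45 of 46) and regulators of Bdnf transcription (40 of 42). With SKF at 60 min 19 of the 111 genes tested from these lists passed, or 17.1%, against 3.93% of all genes tested. The lists were chosen with earlier results of these data known, so their shares of calls are descriptions and not a test. Of the regulators 14 were higher and 0 lower. They include Junb (2.50), Fos (2.11) and Crem (1.58), transcription factors induced by cyclic AMP and activity, on the log2 scale. The median change of the 40 was 0.05, against 0.00 over all genes tested, a median that the size factors hold near 0. Of the ligands and receptors 0 rose and 1 fell, Gdnf (-0.57 ± 0.10 SE, adjusted p = 0.00094), the ligand of the receptor Ret. Its change was -0.27 in experiment 1 and -0.87 in experiment 2, and it passed in the latter. Of the processing genes 2 rose. These were Pcsk1 (0.40), a convertase of the secretory pathway, and Plat (0.44), the gene of tissue plasminogen activator. That enzyme turns plasminogen into plasmin, which cuts the BDNF precursor. In the same list 1 fell, Plau (-0.50), the urokinase activator. Of the signalling genes 1 rose, Sos1 (0.17), which loads Ras with GTP. These 4 genes had the same sign in both experiments, and by experiment Pcsk1 (0.57), Plau (-0.74) and Sos1 (0.20) passed in experiment 1 and Plat (0.61) in experiment 2.

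With JQ1 alone for 60 min 11 of the 111 passed, or 9.91%, against 4.36% of all genes tested, and of the regulators 5 rose and 3 fell. Jun (0.92), Jund (0.50), Gadd45b (1.25) and Junb (0.84) were among the higher, and Kdm6b (-0.32), Crem (-0.35) and Rela (-0.23) were the lower. Of the processing genes 0 rose and 2 fell, Furin (-0.30), which cuts neurotrophin precursors, and Plau (-0.80). Of the signalling genes 1 fell, Slitrk5 (-0.49), which codes for a partner of TrkB at the membrane. When JQ1 was added to SKF for 60 min, 16 of the 111 passed, or 14.4%, against 6.49% of all genes, and 7 regulators rose and 5 fell. Jun (1.03) and Gadd45b (1.09) were again among the higher, and Crem (-0.72), Bhlhe40 (-0.45) and Kdm6b (-0.30) among the lower. The Crem values with SKF alone and with JQ1 added share the SKF libraries. Pcsk1 (-0.36), Furin (-0.19), Slitrk5 (-0.53) and Pik3r1 (-0.21), a subunit of PI3 kinase, were lower in this comparison. With iBD2 alone 0 of the 111 tested genes of the 4 lists passed by limma and 0 on voom-transformed reads, while 10 had an unadjusted p under 0.05. With iBD2 added to SKF these counts were 0, 0 and 8. Over all genes tested 0.186% and 0.0214% passed. With SKF for 24 h 2 of the 111 passed, or 1.80%, near the 1.5% of all genes, and 1 gene of the ligands and receptors fell, Sorcs1 (-0.18, adjusted p = 0.049), and 1 regulator rose, Atf4 (0.37).

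With JQ1 for 24 h 71 of the 111 passed, or 64.0%, in both directions, against 56.1% of all genes tested. The pooled share lies near that background, while the share called differed between the lists, as the counts below show. Of the 11 other ligands and receptors tested 1 rose and 7 fell, with a median of -0.46 against 0.00 over all genes tested. The size factors hold the median over all genes near 0, so that 0.00 is set by the scaling and is not an observed background. Sort1 (0.29), the gene of sortilin, was the 1 that rose, and Sorcs2 (-0.55), of the same family, Ret (-0.90), Cntfr (-0.36) and Lingo1 (-0.58), a partner of p75 in the Nogo receptor complex, were among those that fell. Of the 15 processing genes tested 6 rose and 7 fell. Serpini1 (0.75), which codes for an inhibitor of tissue plasminogen activator, and the convertase Pcsk5 (0.88) were higher, and the proteases Mmp2 (-1.83), Plau (-1.62) and Furin (-0.35) were lower. Of the signalling genes 14 rose and 14 fell, with Map2k2 (0.52), the gene of MEK2, higher and Mapk3 (-0.97), the gene of ERK1, Src (-0.78) and Nradd (-1.23) lower. Of the Bdnf regulators 14 rose and 8 fell, with a median of 0.09. Jun (1.02), Jund (0.74) and Camk2g (0.45) were higher, and Tet1 (-0.50), Arnt2 (-0.43), a partner of Npas4, and Bhlhe41 (-0.95) were lower. With SKF present the counts were 2 up and 8 down, 7 up and 7 down, 17 up and 15 down, and 15 up and 9 down in the 4 lists in the same order, together 80 of the 111 or 72.1%, against 56.2% of all genes tested.

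The genes whose pattern was most like that of Bdnf over the 23 libraries, after each experiment was centred on its own mean, were LOC100910807 (Pearson r = 0.92), Zbtb33 (0.90), Nectin1 (0.89), B630019K06Rik (0.88) and Ppp1r11 (0.87). For Ntrk2 they were Nav3 (0.95), Ralgps1 (0.94), Dcc (0.93), AC141959.1 (0.93) and Frem2 (0.93). These are descriptions over libraries that share treatments, and the highest values of 13999 are chosen ones.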

How the data were processed

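RNA was measured in 23 rRNA-depleted stranded libraries. The submitters' processing notes name STAR, StringTie, Trim Galore, FastQC, DESeq2 and the build Rnor_6.0, without versions. The deposited StringTie tables give, per transcript, FPKM and coverage (mean reads per base) as the authors computed them. The sources used here do not say whether counting used strand, so genes that overlap others or have antisense partners are uncertain. FPKM were summed per gene, divided by median-ratio size factors (0.951 to 1.07) and taken as log2(FPKM + 0.5). This scaling takes the typical gene as unchanged, which is uncertain where 56.1% of genes were called, with JQ1 at 24 h. An overall shift in RNA per cell cannot be seen in FPKM. A gene needed an FPKM of 0.5 in 2 libraries and a transcript of 200 nucleotides. A limma 3.58.1 model in R 4.3.3 (trend, robust, 11 residual degrees of freedom) held 1 mean per group. Its 16 contrasts were two-sided, with a call at a Benjamini-Hochberg adjusted p under 0.05 over all 13999 genes, and transcripts were fitted likewise. The model was tested on simulated data. Reads were estimated as coverage times length over 101 bases.

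The members and lists were chosen with earlier results of these data known. The text names the 5 members and their transcripts, up to 4 called genes per list and direction by smallest p, and the 5 genes most correlated with Bdnf and with Ntrk2. As alternatives, the analysis was repeated on unscaled FPKM, with a pseudocount of 0.1 or 1, without the filter, with voom on estimated reads, with a replicate block, within each experiment and without each library. Transcript shares were also taken from coverage, to which FPKM is proportional within a library. Promoter windows are RefSeq's for GRCr8.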

Additional observations from a re-analysis of the deposited data

Results flagged for a closer look

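The JQ1 effect on Bdnf differed between the times. In experiment 3, at 24 h, Bdnf was higher with JQ1 than with DMSO, and in experiment 1, at 60 min, its JQ1 values were below those of DMSO. The difference between the effects was 1.16 on the log2 scale (limma, adjusted p = 0.0016), and it lay between 1.04 and 1.28 with each library left out in turn. Both JQ1 libraries were above both DMSO libraries at 24 h, and both were below them at 60 min. By itself the JQ1 difference at 60 min did not pass (-0.32, limma, adjusted p = 0.47). Time and experiment cannot be told apart here.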

How the results depend on the processing

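Depth limits Bdnf, Ngfr and Ntf3 most, since they rest on few reads, and 2 libraries per group limit all of the tests. Signs of the members' changes turned in 39 of 1213 values with 1 library left out, and not all of these changes were near 0. The Bdnf interaction at 24 h, -0.25, reached 0.057. Ntf3 with SKF plus JQ1 against SKF at 60 min, -0.20, reached 0.011. Among other settings 4 of 356 turned. These were Ntrk3 with iBD2 on FPKM as deposited (-0.025) and Ntrk3 with SKF in experiment 2 on FPKM as deposited (-0.041), with voom (-0.037) and with the experiment fitted alone (-0.0067). The cause of the changes below was not tested.

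Bdnf with SKF in experiment 2 (0.67, adjusted p = 0.053) passed with a pseudocount of 1 (0.60), with voom (0.76) and with the experiment fitted alone (0.67). Bdnf with SKF plus JQ1 against SKF at 60 min did not pass without the filter (-0.67). On FPKM as deposited Ntrk3 with JQ1 at 24 h passed (-0.25), as did the Ntrk2 JQ1 effect at 24 h minus that at 60 min (-0.19). Ntf3 with SKF plus JQ1 against SKF at 24 h passed on FPKM as deposited (-0.41), with a pseudocount of 0.1 (-0.99) and with voom (-1.66). Transcript shares from coverage equalled those from FPKM. FPKM is proportional to coverage within a library, so this had to be so and is no check of the shares.

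Counts of genes called moved as follows. With each experiment fitted alone they were 155 in place of 235 for SKF in experiment 1, 394 in place of 610 for JQ1 at 60 min, 11 in place of 3 for SKF plus iBD2 against SKF, 89 in place of 210 for SKF at 24 h, and 1 in place of 6 for the interaction at 24 h. The interaction of SKF with JQ1 at 60 min gave 1 in place of 0 on FPKM as deposited, with a pseudocount of 1, without the filter and with voom. iBD2 gave 9 on FPKM as deposited and 4 with voom in place of 26. SKF plus iBD2 against SKF gave 115 without the filter and 5 with voom. The interaction at 24 h gave 11 without the filter, and that of SKF with iBD2 gave 1 on FPKM as deposited and 65 without the filter, in place of 2.

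With each library left out in turn the counts were 202 to 356 for SKF in experiment 2, 314 to 641 for JQ1 at 60 min, 442 to 1016 for SKF plus JQ1 against SKF at 60 min and 0 to 3 for their interaction. They were 4 to 27 for iBD2, 2 to 6 for SKF plus iBD2 against SKF and 1 to 4 for their interaction. They were 63 to 224 for SKF at 24 h, 3 to 8 for the interaction at 24 h, 64 to 143 for the JQ1 effect minus the iBD2 effect and 107 to 181 for the SKF effect at 24 h minus that at 60 min.

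In the same way Bdnf ranged over 0.56 to 0.79 for SKF in experiment 2, -0.91 to -0.42 for SKF plus JQ1 against SKF at 60 min and 0.29 to 0.90 at 24 h, -0.046 to 0.19 for iBD2, -0.022 to 0.14 for SKF at 24 h and -0.56 to 0.057 for the interaction at 24 h. It ranged over 0.28 to 0.77 for SKF in experiment 1, -0.44 to -0.20 for JQ1 at 60 min, -0.59 to -0.11 for the interaction at 60 min and -0.71 to -0.22 for the SKF effect at 24 h minus that at 60 min. Ntrk2 ranged over -0.018 to 0.019 for SKF at 60 min, -0.035 to 0.013 for JQ1 at 60 min, -0.014 to 0.059 for SKF plus JQ1 against SKF at 60 min and -0.16 to -0.11 at 24 h, and -0.025 to 0.014 for SKF at 24 h. Ntrk3 ranged over -0.080 to 0.17 for SKF plus JQ1 against SKF at 60 min and -0.47 to -0.20 at 24 h, -0.086 to 0.12 for iBD2, -0.0048 to 0.17 for SKF at 24 h, -0.25 to -0.08 for JQ1 at 24 h and -0.058 to 0.065 for SKF in experiment 2. Ntf3 ranged over -0.13 to 0.083 for SKF at 60 min, -0.25 to 0.12 for SKF at 24 h, and -0.41 to 0.011 at 60 min and -0.51 to -0.28 at 24 h for SKF plus JQ1 against SKF. Ngfr ranged over -0.040 to 0.092 for SKF, -0.16 to 0.042 for JQ1 and -0.16 to 0.13 for SKF plus JQ1 against SKF at 60 min, and -0.0066 to 0.11 for JQ1 at 24 h. Of the transcripts, ENSRNOT00000083542 ranged over -0.0087 to 0.23 for SKF and -0.37 to 0.23 for SKF plus JQ1 against SKF at 60 min. With JQ1 at 24 h ENSRNOT00000042145 ranged over -0.24 to 0.10 and ENSRNOT00000082611 over -0.19 to 0.10, and ENSRNOT00000090914 ranged over -0.26 to 0.082 for SKF plus JQ1 against SKF.

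The replicate numbers were not taken as pairs. Deviations of same-numbered libraries from their group means correlated at over 0.1 in 1 of 6 pairs of groups in experiment 1, 1 of 3 in experiment 2 and 3 of 6 in experiment 3. With the replicate number as a block Bdnf with SKF in experiment 2 passed (0.67, adjusted p = 0.041), no other call among the changes recomputed for the 5 genes moved (16 comparisons for Bdnf, fewer for the others), and no count of genes called moved by over 1.5 times.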
